A study of Mus musculus with 10 samples.

Results

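The genes described here encode the proteins of the cytosolic ribosome, measured in whole mouse retina by bulk RNA sequencing. They were taken by symbol: protein-coding genes of the GENCODE M21 annotation named Rpl or Rps with a number, or Rplp0, Rplp1 or Rplp2, without the S6 kinase genes and Rpsa, and with a mean level of at least 1 CPM (the count relative to the library total, scaled alike in all libraries). The rule found 91 genes, of which 84 reached the minimum, among 57010 genes in the deposited table. All 84 passed the filter on low counts before the test. The lowest members were Rpl10-ps3 at 4.36 CPM and Rps27l at 4.77 CPM. The highest gene below the minimum was Rps12-ps3 at 0.411 CPM, the testis-enriched copies Rpl10l and Rpl39l were at 0.0900 and 0.0173 CPM, and Rpl3l, known from striated muscle, was at 0.0796 CPM.

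Mice aged 6 to 8 weeks received an injection into the vitreous of an adeno-associated virus (AAV) vector that carried green fluorescent protein (GFP). In 5 mice the vector had the AAV2 capsid (AAV2-GFP) and in 5 mice the capsid named AAV206 (AAV206-GFP). Retinas were taken 14 days later, and the groups differ only in the capsid that carried the reporter, as far as the labels say. Both groups carried a vector and GFP, uninjected retinas were not analysed here, and the labels give no strain, sex, dose, promoter or batch and do not say whether 1 or both eyes of a mouse were used. In whole tissue, fewer cells of a type and less RNA per cell cannot be told apart.

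A ribosome consists of a small subunit, which reads the messenger RNA, and a large subunit, which joins amino acids and passes the new chain through an exit tunnel. One copy of nearly every ribosomal protein is needed per ribosome, and cells keep the amounts of these proteins matched. Most of their messenger RNAs begin with a cytosine and a run of pyrimidines, the 5′ terminal oligopyrimidine (TOP) motif, through which the kinase complex mTORC1 and the RNA-binding protein LARP1 control their translation and stability. In the retina, photoreceptors renew their outer segments every day and have a high demand for protein synthesis.

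The members comprised 43 large subunit proteins, 30 small subunit proteins, the 3 stalk proteins, 4 paralogue-like genes, 3 copies that carry a pseudogene or retrogene name but are annotated as coding, and Rps19bp1, which encodes a binding partner and no ribosomal protein. Their genes lie on 20 chromosomes. Start sites are shown first because the TOP motif is the feature most of these genes are known to share. RefSeq promoter sequences (build GRCm38.p6, first listed start of each gene) matched 62 members. In a window from 10 bases before to 20 bases after the annotated start, on the gene's own strand, 33 of the 62 (53.2%) held a cytosine followed by at least 5 more C or T letters, against 22.0% of all 27025 genes in the RefSeq table. The windows of leading members are given 5′ to 3′ with that run in capitals:
Rps10 (chr17:27635225-27635254, minus strand): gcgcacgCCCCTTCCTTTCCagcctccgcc
Rpl15 (chr14:18270967-18270996, minus strand): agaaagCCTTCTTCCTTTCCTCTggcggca
Rplp2 (chr7:141447641-141447670, plus strand): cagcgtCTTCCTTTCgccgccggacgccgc
Rpl35 (chr2:39005112-39005141, minus strand): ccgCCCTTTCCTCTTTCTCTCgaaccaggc
Rpl10 (chrX:74270806-74270835, plus strand): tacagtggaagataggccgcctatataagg
Rps19 (chr7:24884582-24884611, plus strand): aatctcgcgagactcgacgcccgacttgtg
Rps16 (chr7:28350679-28350708, plus strand): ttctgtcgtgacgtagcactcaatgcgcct
Rpl23 (chr11:97782420-97782449, minus strand): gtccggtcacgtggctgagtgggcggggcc
Rps15a (chr7:118116128-118116157, minus strand): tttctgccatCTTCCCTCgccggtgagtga
Rpl5 (chr5:107900518-107900547, plus strand): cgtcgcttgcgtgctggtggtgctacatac
Rpl22 (chr4:152325716-152325745, plus strand): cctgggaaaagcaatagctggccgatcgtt
Rpl4 (chr9:64173377-64173406, plus strand): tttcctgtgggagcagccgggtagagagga
The upper 8 belong to members that were lower with AAV206-GFP and the last 4 to members with small differences. A run was found in 9 of 13 matched members that passed the test below and in 24 of 49 that did not. Annotated starts can lie some bases from the used one, and a window without a run says only that these letters are not in it.

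Some of the same promoters hold a second short element. Within 250 bases before to 50 bases after the start, on either strand, 23 of the 62 members (37.1%) held CCGGAAG, the core bound by ETS factors, against 9.12% of all genes in the table. The core bound by YY1, AAGATGGC and searched in the same way, overlaps with the former included, was found in 5 members (8.06%) and in 2.88% of all genes. Rpl15 is shown because its upstream window holds the ETS core at 2 places, in capitals below (chr14:18270987-18271236, minus strand, the 250 bases before the start).
Rpl15 upstream: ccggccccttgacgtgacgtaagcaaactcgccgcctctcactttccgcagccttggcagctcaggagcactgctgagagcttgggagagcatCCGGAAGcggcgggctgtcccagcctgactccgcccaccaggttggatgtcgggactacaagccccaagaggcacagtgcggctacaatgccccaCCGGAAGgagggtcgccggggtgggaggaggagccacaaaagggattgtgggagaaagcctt

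Library totals ranged from 10989843 to 12752604 counts. The tissue markers fit retina: the 10 rod genes summed to 56714 to 60312 CPM with AAV2-GFP and 59795 to 66352 CPM with AAV206-GFP. The 7 cone genes summed to 837 to 933 and 938 to 990 CPM, higher with AAV206-GFP without overlap. The list was mixed, since 2 of the 7 passed as higher and 1 as lower, with a log2 fold change of -0.53 (edgeR). Over all genes 5.95% passed as higher and 5.3% as lower. The sum of the 5 erythrocyte genes was also higher without overlap, at 67.8 to 85.8 and 100.6 to 319 CPM, and 4 of them passed as higher (edgeR). The part of these cells in the members' difference was not tested. The 7 markers of the retinal pigment epithelium summed to 11.05 to 37.0 CPM. Microglia and macrophage genes (8 genes) summed to 323 CPM in AAV2-GFP replicate 1 and to 21.3 to 55.5 CPM in the other 9 libraries, and the 10 T and NK lymphocyte genes to 20.6 CPM there and at most 0.949 CPM elsewhere. The 10 interferon response genes summed to 448 and 609 CPM in AAV2-GFP replicates 1 and 4, and to 82.5 to 149.6 CPM in the others.

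The members together were lower with AAV206-GFP, but the size of the difference depended on a few libraries. In the order of replicates 1 to 5, the summed level of the 84 genes was 10044, 8378, 12168, 9757 and 8844 CPM with AAV2-GFP. With AAV206-GFP it was 8502, 8389, 8602, 7616 and 8824 CPM. The means were 9838 ± 1466 and 8386 ± 459 CPM (SD, n = 5), or 0.985% ± 0.156 and 0.835% ± 0.0459 of all counts. The groups overlapped, since AAV2-GFP replicate 2 lay below 4 of the 5 AAV206-GFP libraries. AAV2-GFP replicate 3 was the highest library and AAV206-GFP replicate 4 the lowest. Without these 2 libraries the means were 9256 ± 777 and 8579 ± 185 CPM (SD, n = 4).

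**Figure D1:**
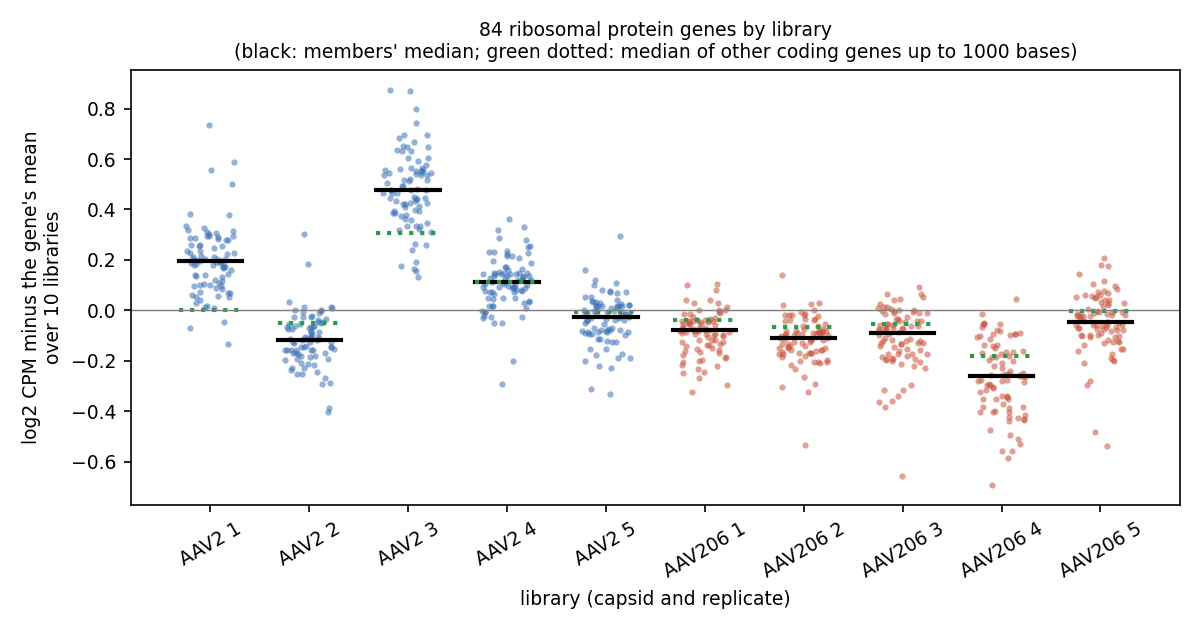
Each point is 1 of the 84 members in 1 library, as log2 CPM minus that gene's mean over the 10 libraries (blue AAV2-GFP, red AAV206-GFP). Black bars are medians of members. Green dotted bars are medians of other coding genes with transcripts of up to 1000 bases, taken from log2(CPM + 1) and so not on the same measure. The members shift together within a library, from a median of 0.48 in AAV2-GFP replicate 3 to -0.26 in AAV206-GFP replicate 4.

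The members moved as a block from library to library. AAV2-GFP replicate 3 held the highest value for 80 of the 84 members and AAV206-GFP replicate 4 the lowest for 52. None of the 84 members had its highest value in an AAV206-GFP library. The median deviation of the members from their own mean was 0.20, -0.12, 0.48, 0.11 and -0.03 on the log2 scale in AAV2-GFP replicates 1 to 5, and between -0.26 and -0.05 with AAV206-GFP. Spread within the group was larger with AAV2-GFP for 82 of the 84 members, with a median coefficient of variation of 17.0% against 7.65%. Since the members move together, these 82 are not independent results. For the summed level it was 14.9% with AAV2-GFP and 8.40% without replicate 3. With AAV206-GFP it was 5.48%, and 2.15% without replicate 4.

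In the gene-wise comparison, 16 of the 84 members (19.0%) passed as lower with AAV206-GFP (edgeR quasi-likelihood test, adjusted p under 0.05), where 5.3% of all 15539 tested genes passed as lower. None passed as higher, where 5.95% of all genes did; no member had a positive log2 fold change, so the count of higher members at an unadjusted p under 0.05 was also 0, as it was past the threshold with DESeq2 and limma. The log2 fold change was below 0 for all 84, against 51.8% of all tested genes. Its median was -0.27 among members and -0.0095 over all tested genes. In all, 57 members had an unadjusted p under 0.05, against 28.0% of all genes. The groups did not overlap in 9 members, all lower with AAV206-GFP (10.7% of members, against 4.37% of all genes). Over all genes, 9.78% did not overlap in either direction and 5.41% were higher without overlap, and 11.2% passed the test in either direction. Short genes passed as lower more often. Among the 168 other coding genes of up to 600 bases, 12.5% did, and 78.6% had a log2 fold change below 0. None of these shares was matched for level. The mean level ran from 4.37 to 380 CPM among members and from 0.631 to 34803 CPM among all tested genes. The part of level in the shares was not tested.

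The number of members past the threshold changed when single libraries were left out. It was 4 without AAV206-GFP replicate 4, 6 without AAV206-GFP replicate 2, 8 without AAV206-GFP replicate 3 and 10 without AAV206-GFP replicate 1, where 2.83%, 2.99%, 3.25% and 3.88% of all genes passed as lower. It was 8 without AAV2-GFP replicate 3, 9 without AAV2-GFP replicate 4 and 34 without AAV2-GFP replicate 2, where 3.60%, 2.74% and 5.44% of all genes did. The members' median log2 fold change stayed at -0.27 without AAV206-GFP replicate 1, 2 or 3, and was -0.23 without AAV206-GFP replicate 4. Without AAV2-GFP replicates 2, 3 and 4 in turn, the median was -0.33, -0.16 and -0.28. Leaving out AAV2-GFP replicate 3 and AAV206-GFP replicate 4 together, chosen after the values were seen, left 2 members, Rpl10 and Rps10, and a median of -0.11. These 2 of 84 were near the share of all genes that passed as lower in that fit, 2.33%. Without the AAV2-GFP libraries with the most interferon response, replicates 1 and 4, 3 members passed (Rpl10, Rps10 and Rpl15) beside 2.85% of all genes, and the median was -0.27.

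**Figure D2:**
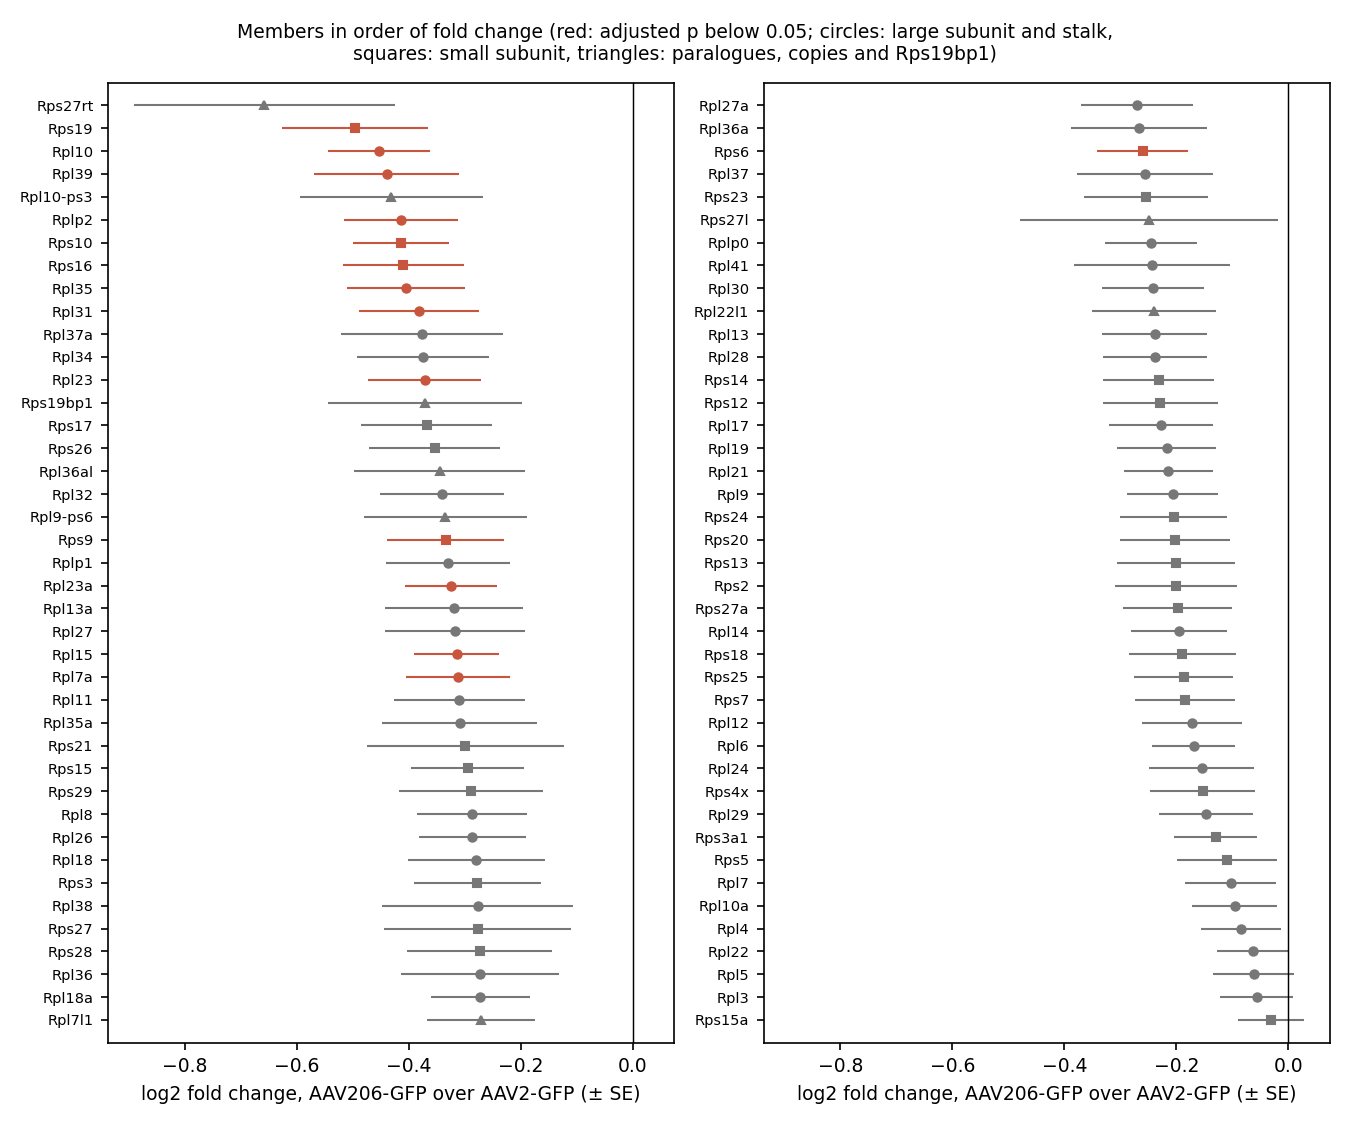
Log2 fold change of AAV206-GFP over AAV2-GFP with its standard error for 82 members drawn by name, in order (red, adjusted p under 0.05 with edgeR). All 82 lie left of 0, from -0.66 for Rps27rt to -0.03 for Rps15a.

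Both subunits took part. Over all tested genes 5.3% passed as lower. Among other coding genes it was 12.5% of those of up to 600 bases and 9.12% of those between 600 and 1000 bases. Among large subunit proteins without the stalk, 8 of 43 passed as lower (18.6%) and the median log2 fold change was -0.27. Among small subunit proteins 7 of 30 passed (23.3%), with a median of -0.26. Of the 3 stalk proteins 1 passed, and of the 8 paralogue-like genes, copies and Rps19bp1 none did (edgeR). No group of these differed in direction from the rest.

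Rpl10, which sits close to the peptidyl transferase centre and joins the large subunit last, had the smallest p of all members. Its level was 125, 96.5, 137, 107 and 98.0 CPM in AAV2-GFP replicates 1 to 5 and 76.7, 83.3, 84.2, 78.9 and 89.0 CPM in AAV206-GFP replicates 1 to 5. Every AAV206-GFP mouse was below every AAV2-GFP mouse, and the log2 fold change was -0.45 ± 0.09 (standard error, SE; adjusted p = 0.00513 in edgeR). Leaving out any 1 of the 10 libraries kept it past the threshold, with edgeR adjusted p-values up to 0.0167.

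Rps10, a protein of the small subunit head that is mutated in some patients with Diamond-Blackfan anaemia, came next. It was at 91.0, 78.6, 108, 96.5 and 84.9 CPM after AAV2-GFP and at 73.0, 68.8, 73.0, 58.7 and 70.8 CPM with AAV206-GFP. The groups did not overlap, and the log2 fold change was -0.41 ± 0.09 (SE; adjusted p = 0.00593 in edgeR). It too passed whichever library was left out.

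Rpl15, an internal protein of the large subunit, went from 127 ± 13.2 CPM in AAV2-GFP mice to 102 ± 7.56 CPM in AAV206-GFP mice (SD, n = 5), again without overlap. The log2 difference was -0.31 ± 0.08 (SE; adjusted p = 0.0157 in edgeR). Rpl10, Rps10 and Rpl15 carried decimals in all 10 libraries, as estimated counts do where reads are divided among similar genes or copies, so their levels are uncertain.

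Rps19, which carried whole counts in every library, is the gene most often mutated in Diamond-Blackfan anaemia and is needed for maturation of the small subunit. It had the largest fold change among the members named here that passed. It was at 68.0, 58.4, 94.1, 73.7 and 58.7 CPM after AAV2-GFP and at 55.4, 52.9, 52.1, 36.3 and 53.8 CPM with AAV206-GFP. The groups did not overlap, the log2 difference was -0.50 ± 0.13 (SE; adjusted p = 0.0247 in edgeR), and AAV206-GFP replicate 4 lay far below the rest. Without that library the edgeR adjusted p was 0.0559, and without AAV2-GFP replicate 3 or 4 it was 0.0534 or 0.0601.

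**Figure D3:**
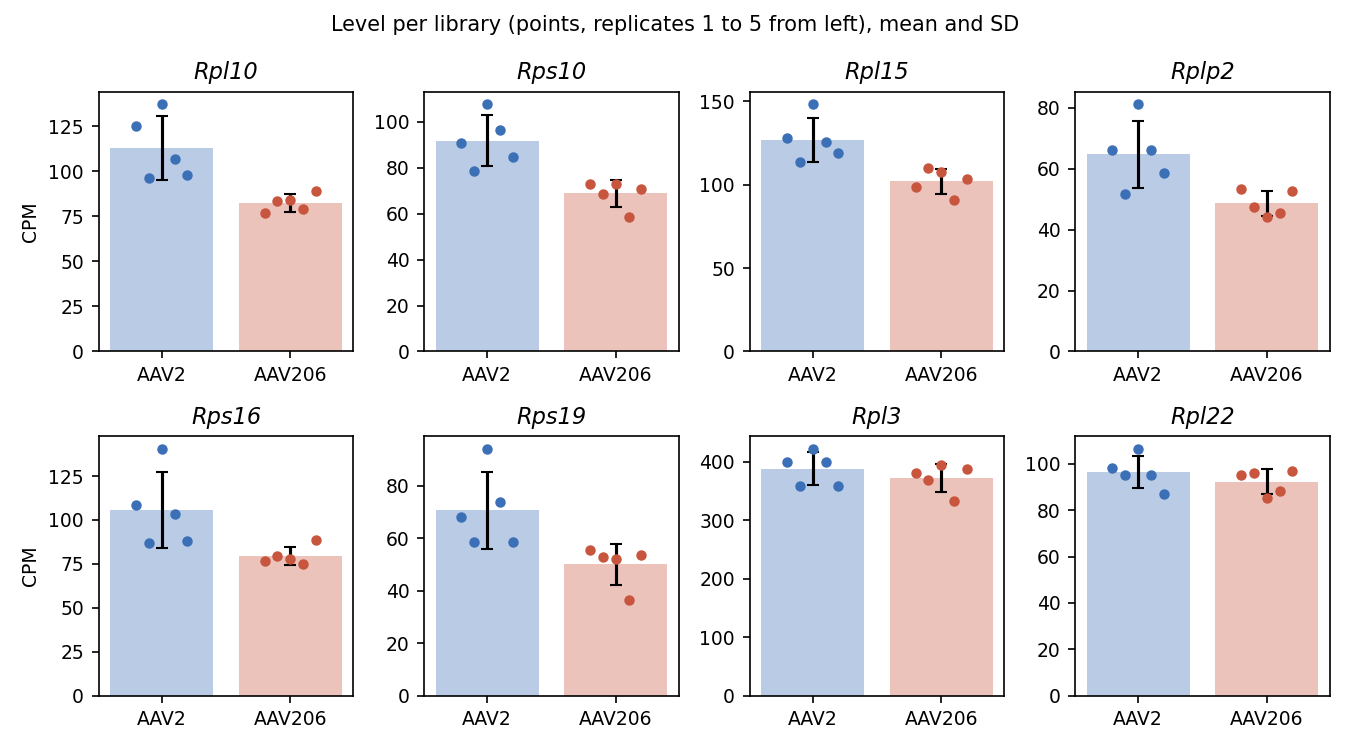
CPM of 8 members in each library (points, replicates 1 to 5 from left) with the mean (bar) and SD for AAV2-GFP and AAV206-GFP, n = 5 each. Rpl10, Rps10, Rpl15 and Rps19 do not overlap between groups, whereas Rpl3 and Rpl22 differ by less than the spread of the mice.

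Rpl23a and Rpl35 of the large subunit also passed. Rpl23a, where the signal recognition particle docks, fell from 135 ± 19.3 to 108 ± 3.03 CPM (SD, n = 5; edgeR adjusted p = 0.0206). Rpl35, its neighbour at the tunnel exit, fell from 63.3 ± 12.0 to 47.8 ± 3.52 CPM (SD, n = 5; edgeR adjusted p = 0.0232) without overlap. Both missed the threshold without AAV206-GFP replicate 2 or 4 (edgeR adjusted p = 0.0504 and 0.0511 for Rpl23a, 0.0640 and 0.0609 for Rpl35). Rpl31 and Rpl39, also large subunit proteins near the tunnel exit, were picked after their values were seen. Other proteins of the tunnel did not pass, among them Rpl4, described below. The log2 difference was -0.38 for Rpl31 and -0.44 for Rpl39 (adjusted p = 0.0320 and 0.0400 in edgeR). Rpl39 was at 42.4 and 42.6 CPM in AAV2-GFP replicates 1 and 3 and at 23.2 to 29.2 CPM in the other 8 libraries.

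Rps16 and Rpl23 carried whole counts as well. Rps16, a small subunit protein near the decoding site, fell from 105.5 ± 21.7 to 79.5 ± 5.36 CPM (SD, n = 5; edgeR adjusted p = 0.0251). Rpl23 of the large subunit fell from 98.5 ± 17.7 to 76.2 ± 5.39 CPM (SD, n = 5; edgeR adjusted p = 0.0278). Both overlapped between the groups, and both missed the threshold when any of AAV206-GFP replicates 1 to 4 was left out, at edgeR adjusted p-values up to 0.0626 for Rps16 and 0.0734 for Rpl23. Rpl23 also did so without AAV2-GFP replicate 3 or 4 (edgeR adjusted p = 0.0517 and 0.0516). Rpl7a, Rps6 and Rps9, named after their values were seen, passed near the threshold. Rps6, the protein phosphorylated by S6 kinase downstream of mTORC1, differed by -0.26 on the log2 scale (adjusted p = 0.0491 in edgeR), and Rpl34, just outside the threshold, by -0.37 (adjusted p = 0.0507 in edgeR).

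The stalk, which recruits the translation factors that hydrolyse GTP, is built of Rplp0 and dimers of Rplp1 and Rplp2. Rplp2 was at 66.1, 51.7, 81.1, 66.2 and 58.6 CPM after AAV2-GFP and at 53.3, 47.4, 44.1, 45.6 and 52.7 CPM with AAV206-GFP. The groups overlapped, since AAV2-GFP replicate 2 lay below 2 of the AAV206-GFP libraries. The log2 difference was -0.41 ± 0.10 (SE; adjusted p = 0.0171 in edgeR), and Rplp2 passed whichever library was left out, with edgeR adjusted p-values up to 0.0488. Rplp1 and Rplp0 differed by -0.33 and -0.24 without passing (adjusted p = 0.0647 and 0.0652 in edgeR), but passed without AAV2-GFP replicate 2 and without AAV2-GFP replicate 5, respectively (edgeR adjusted p = 0.0389 and 0.0375). Rplp1 was at 249.9 CPM in AAV2-GFP replicate 3 and at 125 to 173 CPM in the other 9 libraries.

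The smallest differences included some of the most abundant members. Per kilobase of transcript, the members ranged from 5.69 CPM for Rpl10-ps3 to 328 CPM for Rplp1, with Rpl3 at 281, Rpl8 at 276, Rpl13a at 270.3, Rpl4 at 234 and Rpl7 at 226 CPM per kilobase. Rpl3, which shapes the peptidyl transferase centre, was at 387 ± 28.2 and 373 ± 23.8 CPM (SD, n = 5), and the log2 difference was -0.06 ± 0.06 (SE; adjusted p = 0.608 in edgeR). Rpl4, which extends into the exit tunnel, differed by -0.09 ± 0.07 and Rpl7 by -0.10 ± 0.08 (SE) on the same scale. Rpl8 and Rpl13a differed more, at -0.29 and -0.32, but did not pass (adjusted p = 0.0707 and 0.103 in edgeR). Rpl8 passed without AAV2-GFP replicate 1 or 2 or AAV206-GFP replicate 5 (edgeR adjusted p = 0.0480, 0.0497 and 0.0452). Rpl3 turned to a log2 fold change of 0.013 without AAV2-GFP replicate 3 and AAV206-GFP replicate 4, and to 0.015 with a correction for transcript length. Rps15a, with the smallest difference of all and so named after its values were seen, was at 115 ± 6.88 and 113 ± 4.47 CPM (SD, n = 5).

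The proportions of paralogues to their partners overlapped between the groups in all 4 pairs and were not tested. Rpl22l1, which can replace Rpl22 in the large subunit, had 23.0, 23.6, 28.7, 25.5 and 23.1 counts per 100 counts of Rpl22 with AAV2-GFP and 22.6, 20.5, 26.9, 20.8 and 19.8 with AAV206-GFP. The overlap rested on AAV206-GFP replicate 3, since the other 4 AAV206-GFP libraries lay below every AAV2-GFP library. Rps27l, a p53-induced relative of Rps27, had 9.47 to 14.1 counts per 100 of Rps27 with AAV2-GFP and 8.52 to 14.8 with AAV206-GFP. Rpl36al and Rpl36a were nearly as abundant as each other in counts, with 72.2 to 110.1 and 72.2 to 90.6 counts of the former per 100 of the latter. Rpl7l1, an assembly factor related to Rpl7, had 13.6 to 21.2 and 13.0 to 15.7 counts per 100 of Rpl7. None of these 8 genes passed the test, though Rpl7l1 did without AAV2-GFP replicate 1 (edgeR adjusted p = 0.0468). The log2 fold changes were -0.24 for Rpl22l1 and -0.06 for Rpl22, where the latter turned to 0.06 with the length correction. Rps27l and Rps27 had -0.25 and -0.28, with Rps27l at 0.0090 when AAV2-GFP replicate 3 and AAV206-GFP replicate 4 were left out.

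The 3 copies annotated as coding had log2 fold changes below 0, as all members did. Rps27rt among them carried whole counts in every library. Where reads are divided between a copy and its parent, their directions are not independent. Rpl10-ps3 was at 5.40, 4.90, 4.93, 5.37 and 4.47 CPM after AAV2-GFP and at 3.58, 4.03, 4.06, 3.40 and 3.55 CPM with AAV206-GFP. Its groups did not overlap, but its log2 difference of -0.43 missed the threshold (adjusted p = 0.0969 in edgeR). Decimals were present in at least 1 library for 48 of the 84 members and in all 10 libraries for 22. The median log2 fold change was -0.25 for those 48, with 11 past the threshold (22.9%). It was -0.28 for the 36 with whole counts, with 5 past the threshold (13.9%), where 5.3% of all genes passed as lower. Of the 9 members whose groups did not overlap, 8 carried decimals (16.7% of the 48). Only 1 carried whole counts (2.78% of the 36), against 4.37% of all genes. Annotated pseudogenes with a ribosomal protein symbol and the ending -ps (285 genes, 105 with counts) were summed. They came to 73.8 to 81.2 CPM with AAV2-GFP and 71.2 to 89.4 CPM with AAV206-GFP, at most 1.05% of the members' sum. Pseudogenes with other names were not counted, so the extent of shared reads is not given by this sum.

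Transcript length moved with the difference. The members' transcripts had a median of 698 bases, against 2764 over all tested genes. Among coding genes that are no members, the median log2 fold change was -0.22 for the 168 with transcripts of up to 600 bases and -0.16 for the 669 between 600 and 1000 bases. It was -0.08 for 2911 genes between 1000 and 2000 bases, -0.02 for 5573 between 2000 and 4000 bases, and 0.06 for 4174 longer ones. Members of up to 600 bases had a median of -0.28, those between 600 and 1000 bases -0.26 and longer ones -0.21. Of the 32 members of up to 600 bases, 4 passed as lower (12.5%), and 12.5% of the other coding genes of that length did. Between 600 and 1000 bases, 10 of 35 members passed as lower (28.6%), against 9.12% of the others. Of the 17 longer members 2 did (11.8%). The log2 fold change was below 0 for 78.6% and 75.9% of the other genes in the 2 shorter classes. With a correction for length fitted in each library on the other genes, chosen after the values were seen, the members' median was -0.15. In that fit 5 of the 84 were above 0 and 12 of the 16 still passed, beside 5.79% of all genes as lower. A correction for GC content left the median at -0.27 with 20 members past the threshold.

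Library by library, short genes that are no members shifted in the same libraries. Those of up to 1000 bases had a median deviation of 0.31 on the log2 scale in AAV2-GFP replicate 3 and of -0.18 in AAV206-GFP replicate 4. For these genes 1 was added to the CPM before the logarithm, which lessens the deviations of genes at low levels. For the members nothing was added, so the sizes of the 2 shifts cannot be compared directly. In AAV2-GFP replicate 1, the library with the microglial and lymphocyte signal, the members were at 0.20 and the other short genes at 0.0025. Müller glia markers (7 genes) also had their highest sum in AAV2-GFP replicate 3, at 4147 CPM, and their lowest in AAV206-GFP replicate 4, at 3037 CPM, against 3269 to 3844 CPM in the other 8. The part of library composition, length and these cells in the members' difference was not tested beyond the corrections given.

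**Figure D4:**
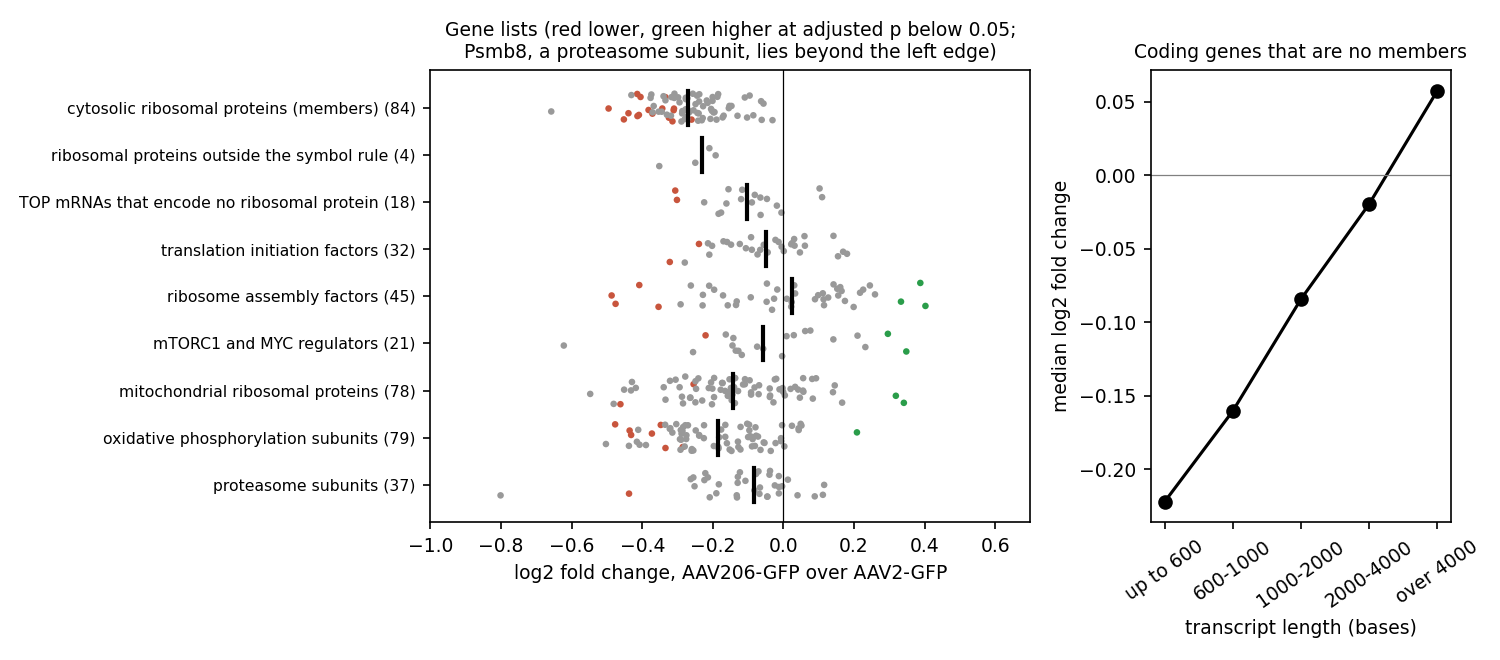
Left, log2 fold change of AAV206-GFP over AAV2-GFP for each gene of the listed groups, with medians as black bars and the number of tested genes in brackets; right, median log2 fold change of coding genes that are no members by transcript length. The members' median of -0.27 is the lowest of the 9 groups, and the medians by length run from -0.22 to 0.06.

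Other genes of the translation machinery gave a mixed picture. Over all tested genes 5.3% passed as lower and 5.95% as higher. None of the 4 tested ribosomal protein genes outside the symbol rule passed in edgeR. Among them Rpsa, Fau and Rack1 differed by -0.19, -0.35 and -0.25 on the log2 scale (adjusted p = 0.170, 0.0877 and 0.0543 in edgeR). Without AAV2-GFP replicate 2, Fau and Rack1 passed (edgeR adjusted p = 0.0382 and 0.0150). Of 18 TOP messenger RNAs that encode no ribosomal protein, 2 passed as lower (11.1%) and the median was -0.10. These were Eef1g, an elongation factor subunit, at 210.4 ± 26.6 and 171 ± 8.09 CPM, and Tpt1 at 289 ± 42.8 and 234 ± 15.2 CPM (SD, n = 5; edgeR adjusted p = 0.0218 and 0.0352), which passed in 6 and 4 of the 10 fits with 1 library left out. Of 32 initiation factors, Eif4a2 and Eif1b passed as lower (6.25%, near the share of all genes). They differed by -0.24 and -0.32 on the log2 scale (adjusted p = 0.0162 and 0.0210 in edgeR), and the list had a median of -0.05.

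Ribosome assembly factors went both ways, with 3 of 45 higher, 4 lower (8.89%) and a median of 0.02. Over all genes, 5.95% passed as higher and 5.3% as lower. Ubtf, which opens ribosomal DNA for RNA polymerase I, fell from 164 ± 10.6 to 124 ± 7.07 CPM (SD, n = 5), by -0.41 ± 0.06 (SE) on the log2 scale (adjusted p = 0.000805 in edgeR). Wdr12, of the large subunit assembly complex PeBoW, changed by -0.35, and Polr1c, shared by RNA polymerases I and III, by -0.48 (edgeR adjusted p = 0.00699 and 0.0112). Heatr1 and Nop58, factors of early pre-ribosomal RNA processing, rose with 0.40 and 0.33, and Polr1b, a core subunit of RNA polymerase I, with 0.39 (edgeR adjusted p = 0.00266, 0.00782 and 0.0138). These 6 genes passed whichever library was left out.

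Among 21 tested regulators of mTORC1 and MYC, Rptor and Tsc1 rose and Rraga fell. Rptor, the scaffold of mTORC1, went from 108 ± 7.83 to 132 ± 3.88 CPM and Tsc1, part of the complex that restrains it, from 90.5 ± 7.16 to 115 ± 12.2 CPM (SD, n = 5; edgeR adjusted p = 0.00593 and 0.00993). Rraga, a GTPase that recruits mTORC1 to lysosomes, changed by -0.22 (adjusted p = 0.0409 in edgeR) and passed in 2 of the 10 fits with 1 library left out. The share of the list that passed as lower was 4.76%, near the 5.3% of all genes, and 5.95% of all genes passed as higher. The median of the list was -0.06.

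The lists of 3 other multi-subunit complexes had medians closer to 0 than the members. As lower, 8.86% of oxidative phosphorylation subunits, 2.56% of mitochondrial ribosomal proteins and 5.41% of proteasome subunits passed. Over all genes 5.3% passed as lower and 5.95% as higher, so the latter 2 lists were below or near that share as lower. Of 79 tested oxidative phosphorylation subunits, 7 passed as lower and 1 as higher, with a median of -0.18, 72 below 0 and a median transcript length of 758 bases. The lower ones included Ndufa12, Cox6b1 and Ndufa1 and the higher one was Ndufs1 (edgeR adjusted p = 0.0235, 0.0282, 0.0290 and 0.0376), and these passed in 7, 6, 5 and 2 of the 10 fits with 1 library left out. Of 78 mitochondrial ribosomal proteins, 2 passed as lower (Mrps25, Mrpl24) and 2 as higher (Mrpl3, Mrps10), with a median of -0.14. With 1 library left out, these passed in 10, 3, 9 and 2 of 10 fits. Of 37 proteasome subunits, 2 passed as lower, Psmb5 and the interferon-induced Psmb8, with a median of -0.08, and they passed in 4 and 3 of those 10 fits. Psmb8 was at 27.0 and 11.9 CPM in AAV2-GFP replicates 1 and 4 and its log2 fold change moved from -2.29 to -0.46 when AAV2-GFP replicates 1 and 4 were left out. The summed oxidative phosphorylation level was 6783 CPM in AAV2-GFP replicate 3 and 4831 CPM in AAV206-GFP replicate 4, again the highest and the lowest library.

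**Figure D5:**
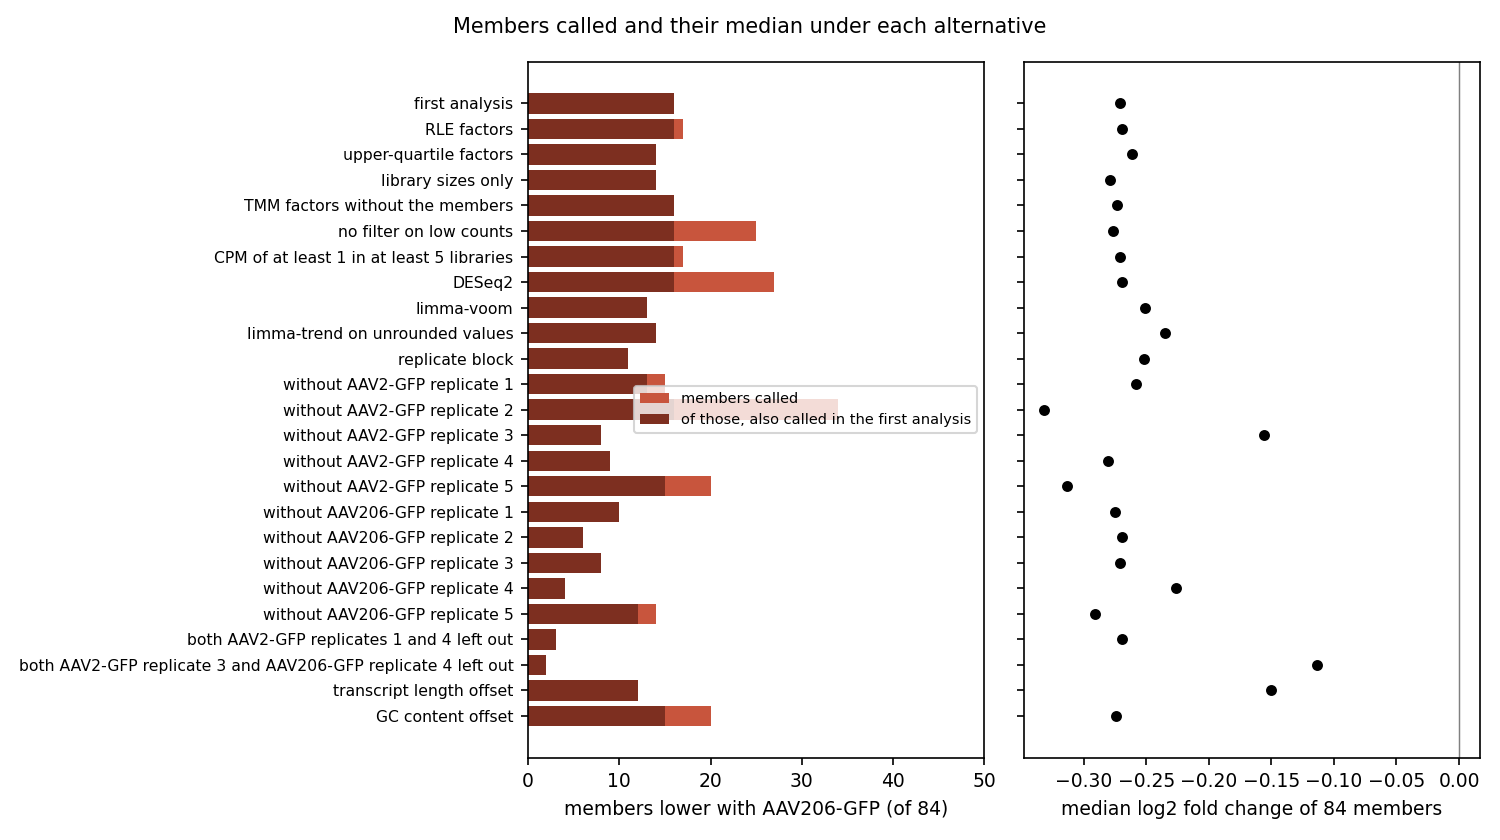
Left, number of the 84 members past the threshold as lower under each alternative analysis, with those also called in the first analysis in dark; right, the members' median log2 fold change. The number runs from 2 to 34, and each median lies below 0, between -0.33 and -0.11.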

How the data were processed

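RNA from 10 retinas was sequenced (5 per vector group), and groups and replicate numbers came from the titles. The authors deposited estimated counts of each gene, without scaling between libraries, and 5.95% of values carried decimals. STAR 2.7.10b, RSEM 1.3.1 and build mm10 are listed in the submitters' processing notes with no role or order, and the annotation is not given in the sources used here. GENCODE M21 named 52081 of the 57010 identifiers, and the other 4929 held 0.519% of counts. The planned test assumed counts, so values were rounded first. edgeR 4.0.16 (R 4.3.3) was used with filterByExpr, trimmed mean of M values (TMM) scaling and a quasi-likelihood F test over all 10 libraries without covariates. The filter left 15539 of 28442 genes, and p-values were adjusted over them by the Benjamini-Hochberg method (threshold 0.05). Every adjusted p in the text is from edgeR unless another tool is named. Each SE is the size of the log2 difference over the root of F. CPM is the unrounded count relative to the TMM-adjusted library size. The minimum of 1 CPM used plain totals.

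Transcript length was that of the shortest principal transcript in GENCODE M21, which need not be the form expressed in retina. Length classes and levels per kilobase rest on it. Each group held 5 mice, and libraries held 10989843 to 12752604 counts, so counting error weighs most in the lowest members. Genes named are the 10 members with the smallest p past the threshold, paralogue pairs, stalk proteins, the 5 most abundant members and up to 3 genes per list and direction; others were picked after their values were seen, and some genes are not reported here by name. The members and lists were chosen with earlier results of these data known. Alternatives covered scaling, filters, DESeq2 1.42.0, limma 3.58.1 (voom, and trend on log2(CPM + 2)), the replicate number as a block, and left-out libraries. The procedure was tested on simulated counts drawn for each gene on its own. Shifts shared by many genes of a library, as seen in the members, were not simulated.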

Additional observations from a re-analysis of the deposited data

Results flagged for a closer look

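In 4 cases 1 mouse lay far from the other 4 of its group, by a gap over 0.71 of the group's range (Dixon's ratio). Chance gives about 1 in 20, or 5 of the 100 group values examined. Rps19 was at 36.3 CPM in AAV206-GFP replicate 4 against 52.1 to 55.4 CPM in the others of its group (ratio 0.825), and Cox6b1 was at 30.7 CPM in the same library against 36.4 to 36.8 CPM (ratio 0.926). Rplp1 was at 249.9 CPM in AAV2-GFP replicate 3 against 155 to 173 CPM (ratio 0.806). Ubtf was at 146 CPM in AAV2-GFP replicate 1 against 165 to 171 CPM (ratio 0.759), still above the AAV206-GFP mean of 124 CPM.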

How the results depend on the processing

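No member passed as higher under any of the 24 alternatives. The 16 lower members (5.3% of all genes) became 25 without a filter on low counts and 27 with DESeq2, where 3.42% and 6.90% of all genes passed as lower. They became 3 without AAV2-GFP replicates 1 and 4 (2.85% of all genes). Without AAV2-GFP replicate 3 and AAV206-GFP replicate 4 they became 2 (2.33% of all genes). Leaving out 1 library gave 4 to 34, beside 2.74% to 5.80% of all genes, and the cause was not tested. Other scalings, filters and tests and the corrections for length and GC content gave 12 to 20, beside 4.77% to 5.79% of all genes. The members' median stayed between -0.33 and -0.11. Over all genes, 1747 calls became 985 and 858 without those library pairs and 991 to 1912 without 1 library.

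With the replicate number as a block, 11 members and 1085 genes passed, and all 11 were among the 16. As lower, 3.09% of all genes passed in that fit. There was no sign that the numbers pair the mice, though a small shared effect could be missed in this way. Deviations of same-numbered libraries correlated at -0.05 to 0.04. No AAV2-GFP library correlated best with the AAV206-GFP library of its own number. Single genes were followed through the alternatives for 51 named genes only. Among these, Rpl22 (0.058) and Rpl3 (0.015) reversed with the length correction. Rps27l (0.0090) and Rpl3 (0.013) did so without AAV2-GFP replicate 3 and AAV206-GFP replicate 4. Over all members, 5 had a log2 fold change above 0 with the length correction and 3 without those libraries. Some reversed members are therefore not named here.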
